A study of Mus musculus with 10 samples.

Results

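The cytosolic ribosome is built from a small (40S) and a large (60S) subunit, each made of ribosomal RNA and many ribosomal proteins, most of them present as a single copy per ribosome. The mRNAs of ribosomal proteins are short, very abundant and start with a run of pyrimidines, the 5′ terminal oligopyrimidine (TOP) motif, through which mTORC1 and the RNA-binding protein LARP1 control their translation. Germinal center B cells divide rapidly and depend on a high rate of protein synthesis. Here the ribosomal protein genes were followed through the RNA-seq libraries of mouse germinal center B cells with and without the zinc finger protein ZBTB38. Members were all genes whose symbol starts with Rpl or Rps and a digit, together with Rplp0, Rplp1, Rplp2 and Rpsa, without the S6 kinases and Rpl10l. This rule took 92 of the 22380 genes. Of these, 77 encode the proteins of the ribosome itself and are called canonical below (31 of the small and 46 of the large subunit). Another 6 are paralogs (Rpl3l, Rpl7l1, Rpl22l1, Rpl36al, Rpl39l and Rps27l), 8 are annotated copies (7 with -ps in their symbol, and Rps27rt), and Rps19bp1 encodes a nucleolar protein that binds RPS19 rather than a part of the ribosome.

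The 10 libraries came from NP-binding germinal center B cells sorted 2 weeks after immunization with NP-OVA in alhydrogel, all labelled strain C57Bl6/N and treatment untreated. WT mice (n = 2) were Zbtb38 fl/fl without Cre, HET mice (n = 2) were Zbtb38 fl/+ with Vav-Cre, and KO mice (n = 6) were Zbtb38 fl/fl with Vav-Cre, so that Cre was present in HET and KO and absent from WT. Vav-Cre is active mainly in hematopoietic cells, and the floxed exon holds the whole coding sequence of Zbtb38, in a floxed line that came from 1 founder. The study counts the WT and KO libraries as mice, the labels do not name the animals, and p-values measure the spread between these libraries. CPM are estimated counts scaled to the library size multiplied by a normalization factor (TMM). This factor ran from 0.923 in KO replicate 1 to 1.07 in KO replicate 4. Zbtb38 itself averaged 157 ± 7.02 CPM in WT, 112 ± 8.23 in HET and 31.7 ± 10.8 in KO (mean ± SD). Its log2 fold change was 2.08 ± 0.23 (SE) for the 4 control libraries over KO (edgeR adjusted p = 0.0104). Libraries held 26612431 to 41059082 estimated counts. Summed over a list of 13 germinal center and B lineage genes, TPM (counts scaled by transcript length and then to a fixed total per library) ranged from 7547 to 9427 in KO and from 8569 to 9344 in the controls. The 15 T cell genes summed to 381 and 410 in WT, 165 and 178 in HET and 167 to 293 in KO. Of these sums, Lck alone held 116 and 124 in WT, 122 and 120 in HET and 77.0 to 122 in KO. The 11 myeloid genes summed to 576 and 721 in WT, 99.5 and 131 in HET and 95.7 to 1003 in KO. The 4 genes measured on the Y chromosome summed to at least 110 in both WT libraries and in no HET library to more than 0.64, while in KO they were at 88.8 to 145 in replicates 1, 2 and 5 and at most 1.77 in replicates 3, 4 and 6.

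Ribosomal protein transcripts made up 7.11% to 10.03% of all TPM in these cells. Of the 100 genes with the highest mean TPM, 23 were members. TPM divides by transcript length and can be compared between genes. By this measure the summed level was 82639 and 76343 in the WT libraries, 85018 and 86292 in HET, and 100281, 73032, 96262, 71090, 93614 and 89780 in KO replicates 1 to 6. KO replicates 1, 3, 5 and 6 lay above every control and KO replicates 2 and 4 below every control. Group means were 79491 ± 4452 in WT, 85655 ± 900 in HET and 87343 ± 12338 in KO (SD). The KO to WT ratio of the means was 1.099, and both WT libraries lay inside the KO range. No test was made of a sum over the members. As a share of estimated counts, members held 2.98% and 2.71% in WT, 2.88% and 2.91% in HET and 2.49% to 4.05% in KO. In bulk RNA of this kind, less RNA per cell and a smaller proportion of cells rich in ribosomal protein mRNA cannot be told apart.

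**Figure D1:**
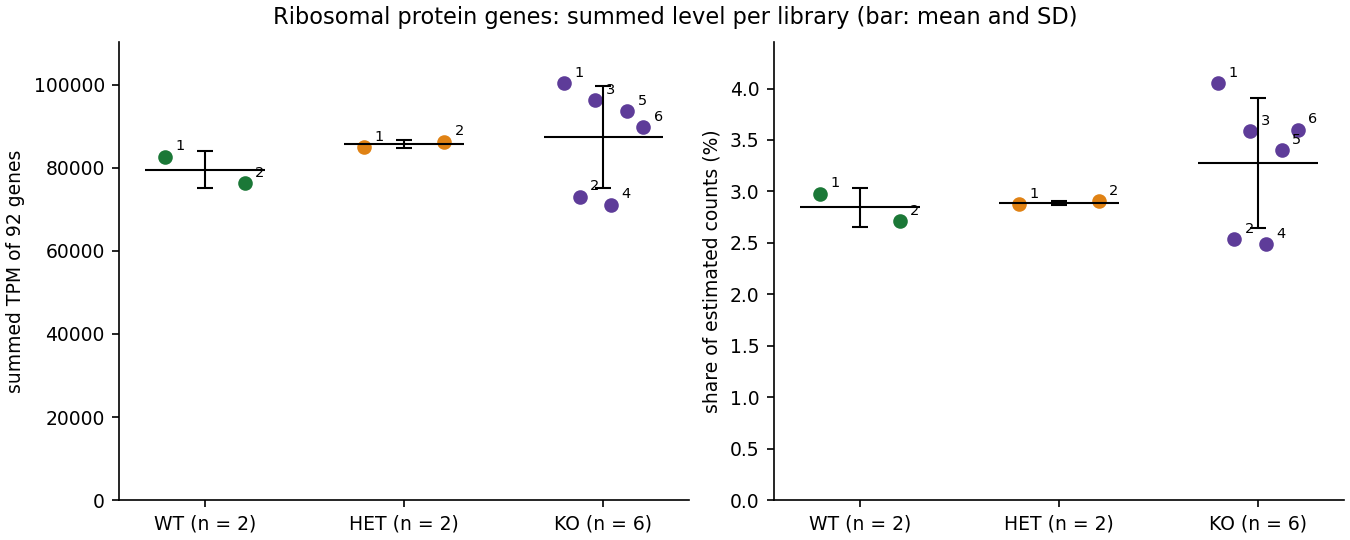
Summed TPM of the 92 member genes (left) and their share of the estimated counts in percent (right) for each library, with the replicate number beside each point and the mean and SD of each genotype as bars. The 6 KO libraries spread from 71090 to 100281 TPM and surround the 4 control libraries, which lie between 76343 and 86292.

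The canonical genes kept a similar order of abundance in all libraries. Mean TPM was 101 for Rps20, the lowest, and all other canonical genes exceeded 100 TPM in every library. Across the 45 pairs of libraries, Spearman's rho over the 77 genes lay between 0.958 and 0.995, which is a description since the genes of a library are not independent. Among the most abundant were Rps27, at 3552 and 3367 TPM in WT, 3999 and 3842 in HET and 3060 to 5109 in KO (mean 3821), Rps29 (2589), Rpl32 (2251) and Rpl41 (2249), the last of which encodes a very short peptide. Rpl32 was above Rpl41 in 6 of 10 libraries, so their order was not resolved. Rps27 was above Rps29 in all 10 libraries.

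The 5 lowest canonical genes were Rps20, Rps12, Rpl27, Rpl27a and Rpl12, with mean TPM of 101, 153, 233, 270 and 378. Rps20 was measured through a single annotated transcript of 3706 bases, of which 3167 are 3′ UTR, and its TPM is scaled by that length. On CPM, which is not scaled by length, Rps20 stood at 255 and 222 in WT, 267 and 281 in HET and 180 to 417 in KO. For Rps12 and Rpl27, an annotated intronless copy took more of the signal than the parent gene did. Rps12-ps3, at chr19:59322290-59322783 (GRCm38), averaged 485 TPM and was 2.16 to 3.82 times Rps12 in each library, and its 399 coding bases are identical to those of Rps12. Rpl27-ps3 averaged 933 TPM against 233 for Rpl27. Reads from the coding bases of Rps12 cannot be assigned to 1 of its loci, so its level is uncertain. The identity between Rpl27 and its copy was not measured, and how the counting divided reads between them is not known.

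**Figure D2:**
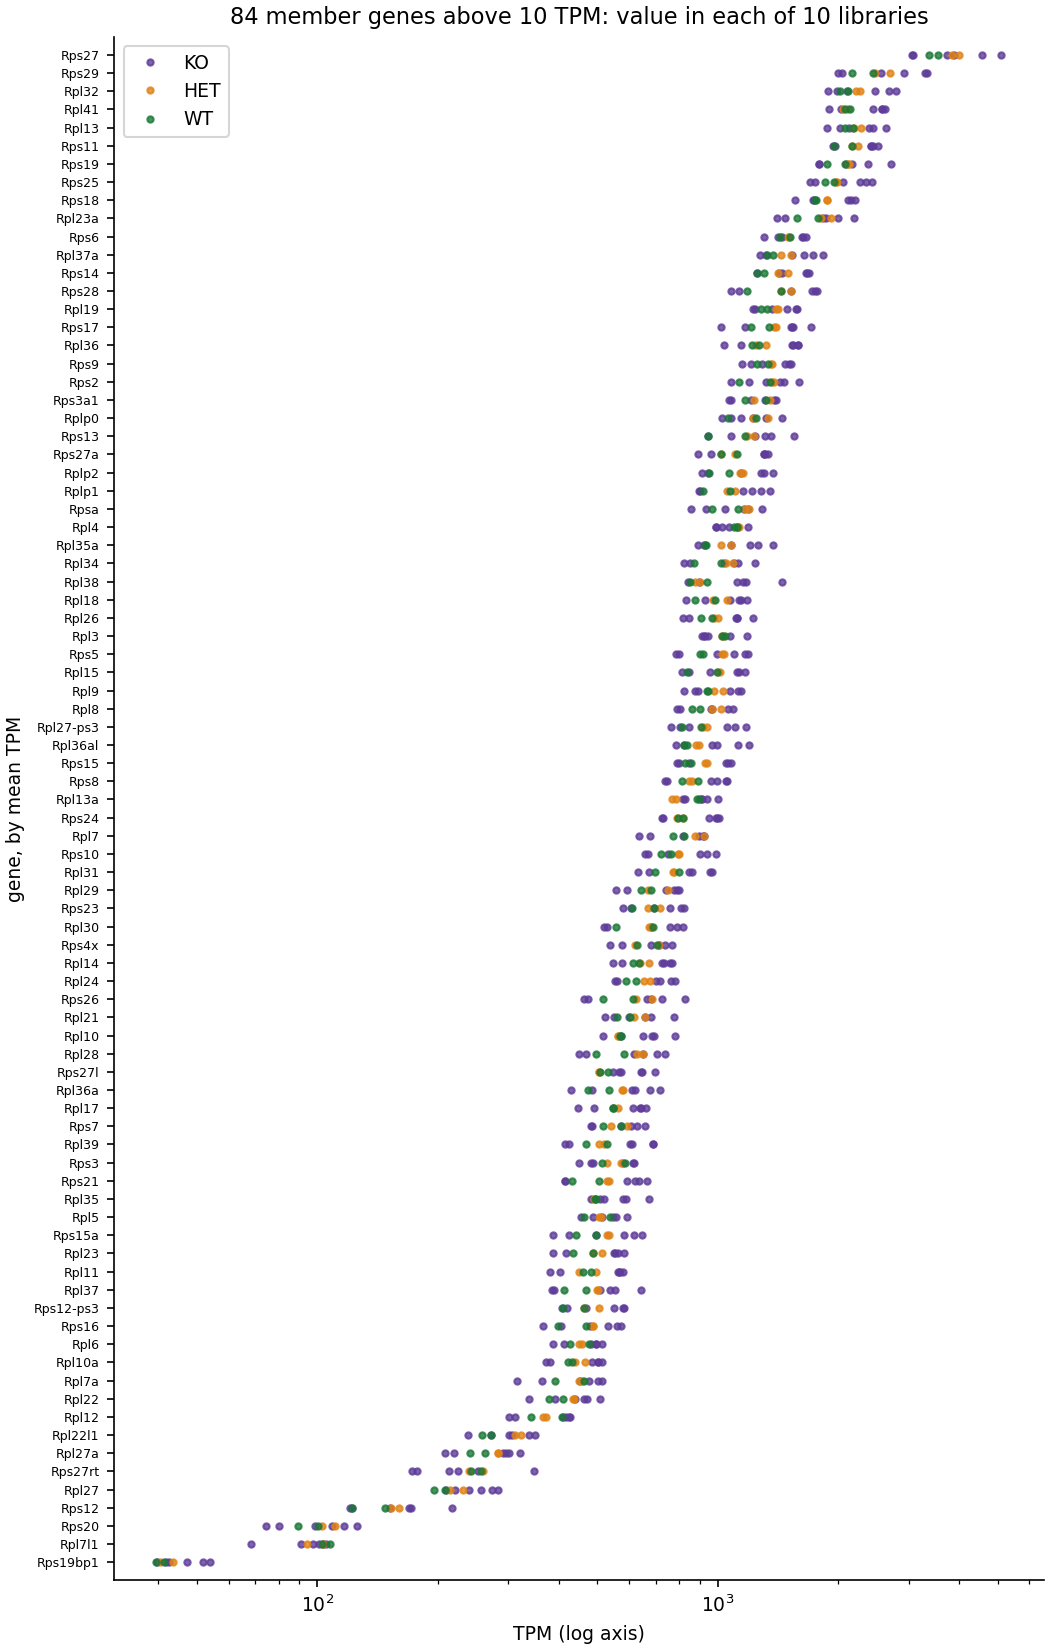
TPM on a log axis for 84 member genes with a mean above 10 TPM, each library being a point coloured by genotype. Genes are ordered by mean, with Rps19bp1 (44.2) lowest and Rps27 (3821) highest of those drawn, and within a row the KO points usually extend past the WT and HET points on both sides.

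The genes for the stalk of the large subunit, which recruits elongation factors, were present at similar levels, with mean TPM of 1211 for Rplp0, 1126 for Rplp2 and 1096 for Rplp1. Rpsa, the small subunit protein also described as a laminin receptor, averaged 1093. Rps6, the substrate of the S6 kinases downstream of mTORC1, averaged 1504, with 1518 and 1428 in WT, 1507 and 1496 in HET and 1307 to 1663 in KO. Rpl5 and Rpl11, which bind MDM2 when ribosome assembly fails and so stabilise p53, averaged 517 and 495. Rps19, often mutated in Diamond-Blackfan anemia, averaged 2109. Rps24 was divided among 5 annotated transcripts, and 1 of them carried 88.1% to 89.8% of its TPM in every library, while a second carried 8.67% to 9.84%. The small to large subunit ratio, summed TPM of the 31 over that of the 46 canonical genes, was 0.836 and 0.816 in WT, 0.835 and 0.832 in HET and 0.813 to 0.849 in KO. The ratio of every control library lay inside the KO range.

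Among the paralogs, Rps27l, Rpl36al and Rpl22l1 were expressed at levels of the canonical genes and Rpl3l and Rpl39l were nearly absent. Rpl36al averaged 933 TPM against 570 for Rpl36a, a ratio of 1.53 to 1.82 in each library. Rpl22l1 averaged 296 against 427 for Rpl22, whose protein represses it in other cells, and the ratio stayed between 0.647 and 0.738. Rpl7l1, a nucleolar factor related to RPL7, averaged 97.2 and Rps19bp1 44.2. Rpl39l, known from the testis, averaged 1.11 TPM and Rpl3l, known from striated muscle, 0.113. Of the copies other than Rps12-ps3, Rpl27-ps3 and Rps27rt, none averaged more than 1.01 TPM. RPS27 and RPS27L are near-identical proteins, and RPS27L is a known p53 target. Rps27rt is an intronless copy at chr9:114982366-114982739 with 238 TPM. The 3 coding sequences are set side by side because their reads differ in how well they can be told apart. The stretch from coding base 4 to 63 is shown (Gencode transcripts, GRCm38, 5′ to 3′), with capitals at the 19 positions where Rps27 and Rps27l differ.
Rps27: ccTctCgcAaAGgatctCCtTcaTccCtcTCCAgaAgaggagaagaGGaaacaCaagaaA
Rps27rt: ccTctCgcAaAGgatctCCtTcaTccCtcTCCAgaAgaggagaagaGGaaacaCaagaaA
Rps27l: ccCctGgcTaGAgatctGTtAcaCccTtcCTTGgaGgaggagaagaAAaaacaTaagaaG
Over the whole 255 coding bases Rps27rt was identical to Rps27, whereas Rps27l matched at 194 (76.1%). Rps27l at chr9:66946086-66949516 can therefore be quantified apart from Rps27 at chr3:90212522-90213651, and Rps27rt cannot.

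The canonical genes shared a compact structure. Weighted by transcript use, their median transcript was 698 bases long with 453 coding bases and a 3′ UTR of 69.7, against 2514, 1122 and 856 over the 14354 genes tested. Promoter windows from RefSeq (GRCm38.p6, 250 bases before to 50 after the annotated start) were at hand for 57 of the 77 genes, in 67 windows. A C at the annotated first base followed by at least 4 bases that are each C or T was found in 19.4% of these windows and in 2.51% of all 32851. A run of 8 or more C or T that touches the 10 bases on either side of the start was found in 41.8% against 14.0%. CCGGAAG on either strand, the core of sites for ETS family factors, was in 37.3% against 8.86%, AANATGGC on either strand, the core for YY1, in 22.4% against 6.05%, and GGGCGG on either strand, the core for SP1, in 61.2% against 35.7%. TATAAA between 45 and 15 bases before the start was in none of the 67 windows and in 2.14% of all. These are matches of letters, and no binding was measured. Of the 28 windows with a pyrimidine run near the start, 6 are given to show how the run sits. They belong to Rps27 and Rps26, among the genes of widest spread in KO, and to Rpl4 and Rpl13a, among those of narrowest spread. The others belong to Rps6 and to Rpl38. Rpl38 was called in no comparison but was among the members with the smallest p in WT plus HET against KO and in HET against KO. Having a run was what chose them, and Rps29 and Rpl3 are not among those windows. Each runs from 35 bases before to 25 bases from the annotated start on, 5′ to 3′ on the coding strand, with the pyrimidine run in capitals.
Rps27, chr3:90213624-90213683, minus strand: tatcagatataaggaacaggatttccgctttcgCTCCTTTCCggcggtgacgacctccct
Rps26, chr10:128626482-128626541, minus strand: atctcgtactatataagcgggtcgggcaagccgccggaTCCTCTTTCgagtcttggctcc
Rpl38, chr11:114668545-114668604, plus strand: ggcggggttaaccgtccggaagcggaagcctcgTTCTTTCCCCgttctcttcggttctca
Rps6, chr4:86857343-86857402, minus strand: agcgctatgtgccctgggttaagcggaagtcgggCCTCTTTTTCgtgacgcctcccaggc
Rpl4, chr9:64173352-64173411, plus strand: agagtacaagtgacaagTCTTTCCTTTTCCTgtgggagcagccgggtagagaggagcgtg
Rpl13a, chr7:45128721-45128780, minus strand: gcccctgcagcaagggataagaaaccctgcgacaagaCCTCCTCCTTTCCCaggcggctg

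The canonical genes moved as a block between libraries. Over the 10 libraries, each gene's log2 CPM correlated with the median of the other canonical genes at r = 0.884 to 0.997 (median 0.974), and 74 of 77 were above 0.9. Among the 14266 other genes tested, the median correlation with the same profile was −0.10, and 1.68% were above 0.9. These values describe 10 libraries that share their depth normalization. The median canonical gene stood at −0.07 and −0.26 (log2, relative to the mean of the 10 libraries) in WT, −0.06 and −0.04 in HET, and 0.54, −0.37, 0.23, −0.40, 0.17 and 0.32 in KO replicates 1 to 6. KO replicate 1 was the highest library for 67 of the 77 genes, while KO replicate 4 was the lowest for 53 and KO replicate 2 for 23. For 84 of the 87 members tested in the comparison of all controls with KO, KO libraries lay both below and above every control library, as they did for 38.8% of all genes tested. Among the other members, Rps12-ps3 (r = 0.98), Rpl27-ps3 (0.97), Rpl22l1 (0.97), Rpl36al (0.95) and Rps19bp1 (0.93) followed the same profile. Rps27l (0.89), Rps27rt (0.79) and Rpl7l1 (0.31) did so less closely. For the low-count Rpl9-ps6, Rpl39l and Rpl7a-ps5, r was 0.59, 0.07 and −0.66.

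**Figure D3:**
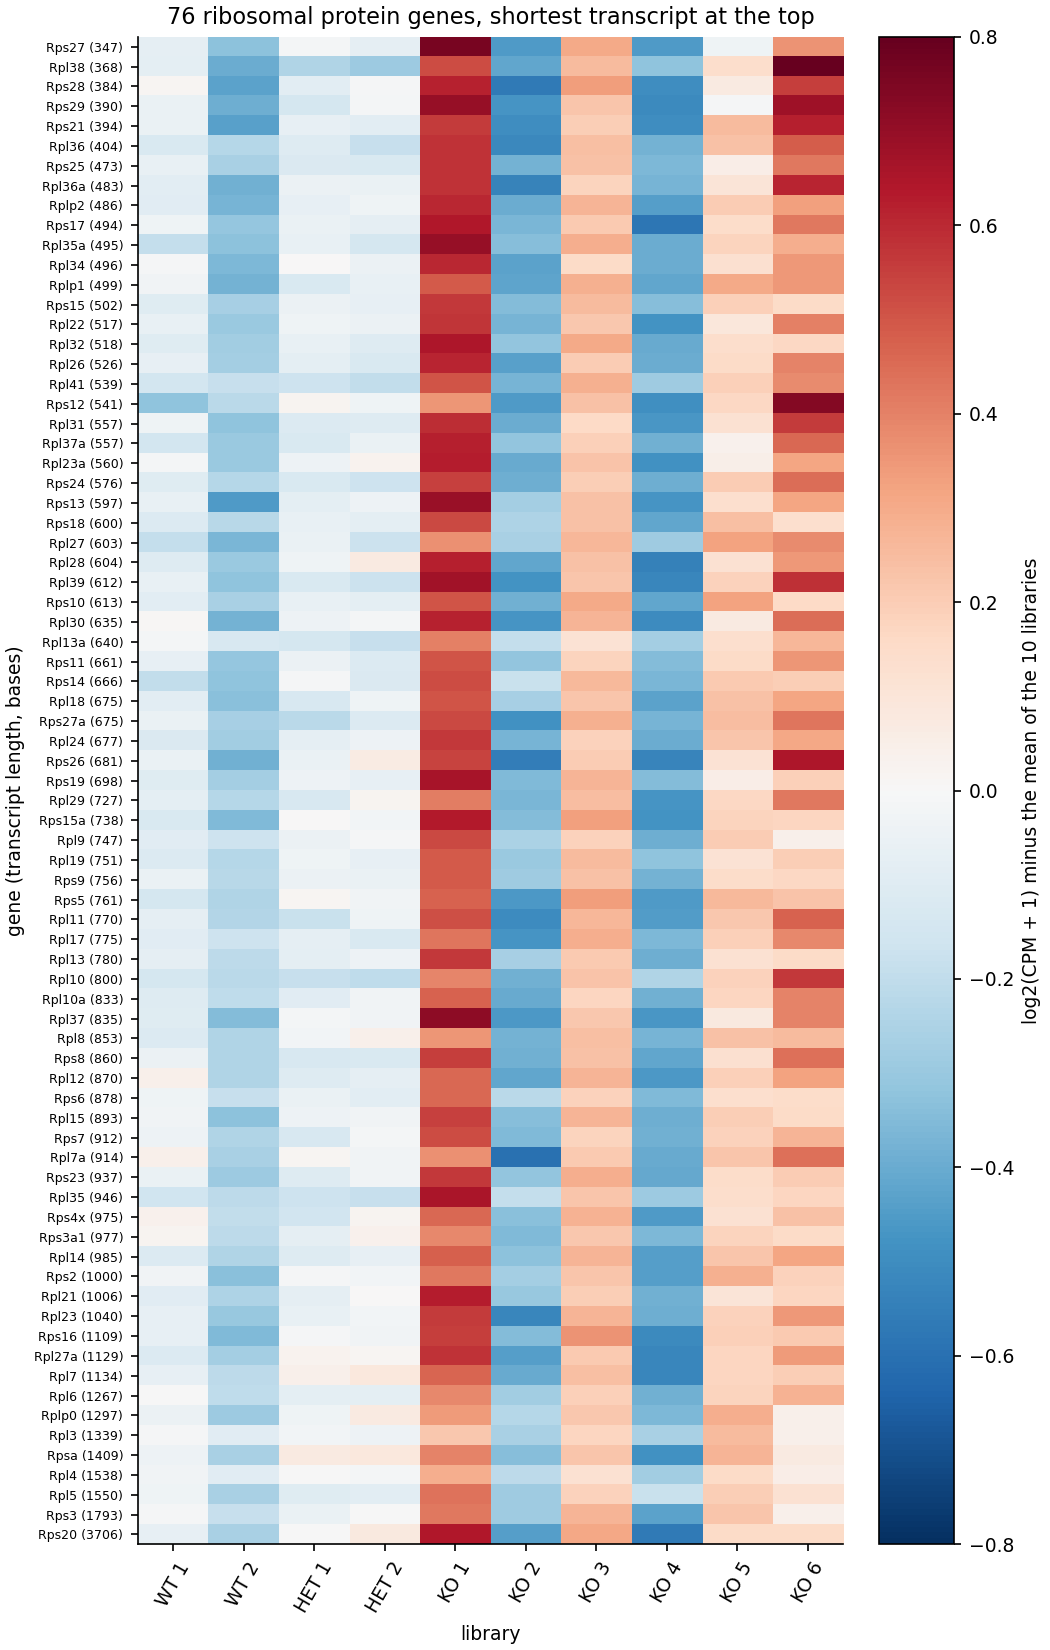
Log2(CPM + 1) minus the mean of the 10 libraries for 76 canonical genes (rows, from the shortest transcript at the top to the longest) in each library (columns), on a colour scale from −0.8 to 0.8. KO replicates 1, 3, 5 and 6 are above the mean in nearly every row and KO replicates 2 and 4 below it in every row, and the rows of Rpl3 and Rpl4 are palest.

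Within KO, the coefficient of variation (CV) of CPM had a median of 26.0% over the canonical genes, with a range from 14.9% to 36.1%. Over all 2387 tested genes with a mean of at least 100 CPM in KO, the median was 15.2%. The edgeR dispersion of 72 of the 77 canonical genes was above the trend for genes of their abundance, as it was for 33.5% of all genes tested. On TPM the gap closed, with a median CV of 15.4% for the canonical genes and 15.8% for the abundant genes. The widest spread was that of Rps29 (36.1%), Rps27 (33.7%) and Rps26 (33.7%), and the narrowest that of Rpl4 (14.9%), Rpl3 (15.6%) and Rpl13a (17.7%). Rps29 had 533, 236, 384, 231, 326 and 527 CPM in KO replicates 1 to 6, whereas Rpl4 had 1331, 943, 1186, 897, 1212 and 1131. Both were lowest in KO replicates 2 and 4. The transcripts of Rps27, Rps29 and Rps26 have 347, 390 and 681 bases, and those of Rpl13a, Rpl3 and Rpl4 have 640, 1339 and 1538. Rps26, of wide spread, is thus longer than Rpl13a, of narrow spread.

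Transcript length moved with the library profile in genes outside the ribosome as well. Among other genes above 32 CPM, those of up to 600 bases (n = 106) had a median deviation of 0.64 in KO replicate 1 and −0.27 in KO replicate 4, close to the 0.59 and −0.41 of the 25 canonical genes of that length. In genes of over 4000 bases (n = 1070) the sign was turned, with −0.38 in KO replicate 1 and 0.05 in KO replicate 4. Above 1000 and up to 2000 bases, the 12 canonical genes differed between these libraries by 0.86 and the 1617 other genes by 0.39. After a smooth trend on transcript length was taken out of each library, which was added after the data were seen, the median canonical gene lay at 0.05 and −0.10 in WT, 0.06 and 0.10 in HET, and 0.01, −0.20, 0.09, −0.21, 0.15 and 0.04 in KO replicates 1 to 6. KO replicates 2 and 4 remained the lowest libraries and KO replicate 1 no longer stood apart. The median difference between transcript length and effective length, taken over long transcripts only, reflects the fragment size that the quantification assumed. It ranged from 212.5 to 242 bases, lowest in KO replicate 6, and went with the canonical median at r = −0.34 over 10 libraries. Its part in the spread was not tested.

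**Figure D4:**
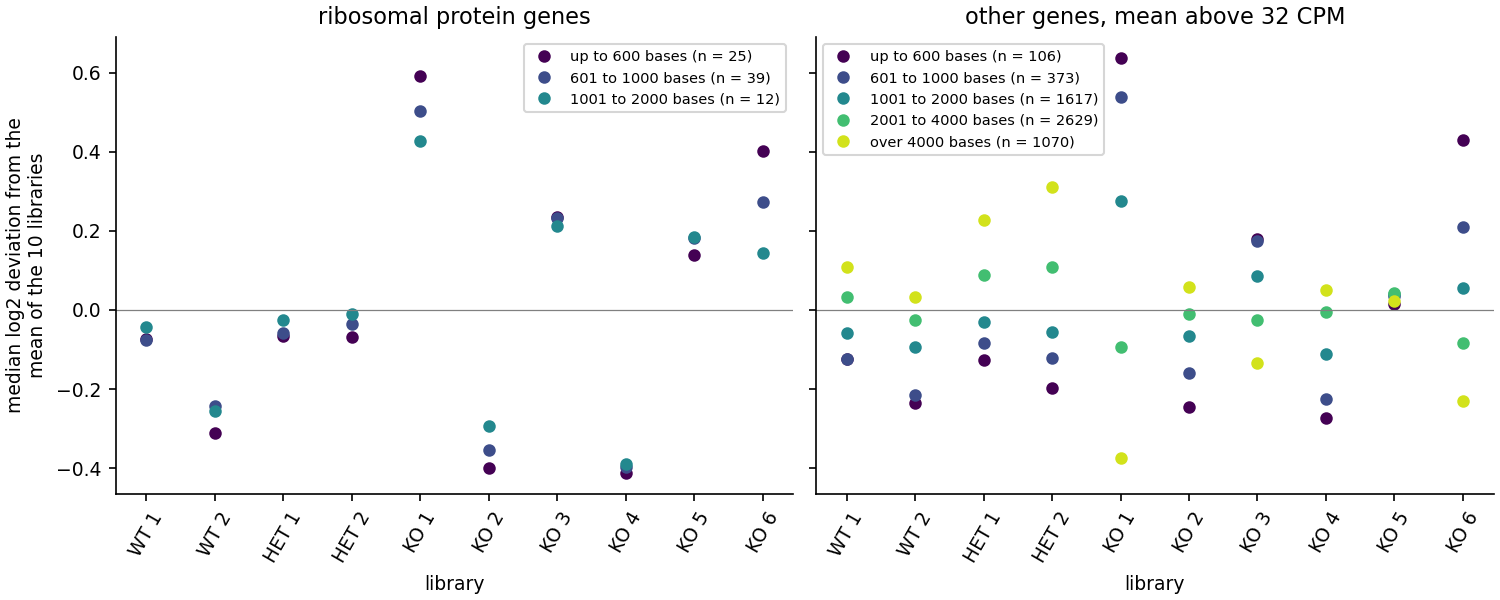
Median log2 deviation from the mean of the 10 libraries by transcript length class, for canonical ribosomal protein genes (left) and for other genes above 32 CPM (right), 1 column of points per library. In KO replicate 1 short genes of both kinds lie near 0.6 and long genes lie at −0.38, while in KO replicates 2 and 4 the ribosomal protein genes lie lower than other genes of their length.

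WT and KO were compared first, to ask whether loss of ZBTB38 altered the ribosomal protein genes, and none of the 88 members tested passed the threshold. By edgeR's quasi-likelihood test at an adjusted p of 0.1, 0 members were called, where 0.00704% of all 14203 genes were (1 gene, Zbtb38), and the smallest adjusted p of a member was 0.999. At an unadjusted p of 0.05 the count was also 0, against 2.18% of all genes. DESeq2 gave 0 at either threshold, against 0.0422% of all genes called and 2.99% under the unadjusted threshold. The median log2 fold change of WT over KO was −0.30 for the members and −0.01 for all genes, and 85 of 88 members were lower in WT against 51.8% of all genes. Since the members move together, this count does not stand for 88 independent observations. The median standard error of a member was 0.25, and on CPM for no member were both WT libraries below all KO libraries (2.68% of all genes). On TPM this held for 2 members, Rpl27 and Rps27l, and for 1.49% of all genes. Rpl27 had the smallest p. Its TPM was 208 and 196 in WT and 238, 220, 257, 209, 283 and 272 in KO. The log2 fold change was −0.44 ± 0.22 (SE, edgeR adjusted p = 0.999). Rps27l followed at −0.39 ± 0.21 and Rps14 at −0.39 ± 0.21, both at the same adjusted p.

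All 4 control libraries were next pooled against KO to raise the number of samples. The 4 members not tested in any comparison, for low counts, were Rpl3l, Rpl13a-ps1, Rpl36-ps4 and Rpl9-ps1, joined here by Rpl9-ps6. Of 87 members tested, 0 were called (0.00749% of 13347 genes, again Zbtb38 alone) and the smallest adjusted p was 0.744. At an unadjusted p of 0.05, 3 members were lower in the controls and 0 higher, against 6.3% of all genes. DESeq2 called 0 members and 0.135% of all genes, and put 5 members and 7.93% of all genes under the unadjusted threshold. The median log2 fold change was −0.24 against −0.02 for all genes, and 86 of 87 members were lower in the controls against 52.8% of all genes. The 3 were Rps27l, Rpl38, which encodes a large subunit protein known for its part in the translation of Hox mRNAs, and Rpl27. Rps27l had 507 and 531 TPM in WT, 505 and 505 in HET and 696, 567.6, 645, 549, 642 and 573 in KO. On this scale every control library was below every KO library, which was true of 0.24% of all genes, although on CPM the lowest KO library (103) was below the highest WT library (105). The log2 fold change of Rps27l was −0.41 ± 0.15 (SE, edgeR adjusted p = 0.744). Rpl38 had 939 and 852 TPM in WT, 905 and 875 in HET and 1152, 841, 1174, 897, 1119 and 1449 in KO, so that the groups overlapped through KO replicates 2 and 4. Its log2 fold change was −0.48 ± 0.22 (edgeR adjusted p = 0.744). On CPM no member was below KO in all controls (0.524% of all genes).

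The count at an unadjusted p of 0.05 moved with single libraries. It was 16 of 87 without KO replicate 2, against 8.88% of all genes in that fit, and 25 without KO replicate 4, against 9.13%. These were the KO libraries with the lowest ribosomal protein levels. The count was 1 without KO replicates 1, 3, 5 or 6 in turn, against 4.68% to 7.28% of all genes. It was 1 or 2 without a control library, against 3.28% to 7.03%. In each case 0 members were called. On TPM, with limma on log2(TPM + 1), the median of the members was −0.06 and that of all genes 0.08, a distance of −0.15 in place of −0.21 in the count fit. For WT over KO, TPM moved the median of all genes from −0.01 to 0.11, and the distance of the members from it was −0.23 in place of −0.29. With the length trend taken out, the median of the members was 0.05 for the pooled controls over KO and −0.01 for WT over KO, and 65 and 37 members were then higher in the first group.

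HET and KO were compared because both carry Vav-Cre. None of 88 members was called (0.00697% of 14354 genes, which was Hnrnpll), and 1 was below an unadjusted p of 0.05, against 10.2% of all genes. DESeq2 also gave 0 and 1 member, although it called 3.19% of all genes and put 13.1% under the unadjusted threshold. The median log2 fold change of HET over KO was −0.18 against −0.07 for all genes, and 87 of 88 members were lower in HET against 56.3% of all genes. Rps27l had the smallest p, with a log2 fold change of −0.44 ± 0.20 (edgeR adjusted p = 0.489). It was also the only member below KO in both HET libraries on CPM (5.77% of all genes), and on TPM it was joined by Rpl13a (3.71% of all genes). Rpl38 (−0.50 ± 0.29) and Rpl10, a late-joining large subunit protein (−0.36 ± 0.22), came next, with adjusted p-values of 0.572 and 0.597 by edgeR. With the length trend taken out, the median turned to 0.10 and 3 members were higher in HET at an unadjusted p of 0.05, against 7.94% of all genes in that fit in either direction. On TPM, with limma on log2(TPM + 1), the median of the members was −0.0071 against 0.04 for all genes, and 38 of 88 members were higher in HET. Without KO replicate 1 the median of the count fit was −0.09.

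WT and HET differ in the copy number of Zbtb38 and in the presence of Cre. Here too, 0 of 88 members were called (0.00697%, Hnrnpll), and 0 were at an unadjusted p of 0.05 in edgeR, against 6.42% of all genes. DESeq2 also gave 0 at either threshold, against 0.871% of all genes called and 8.19% under the unadjusted threshold. The median log2 fold change of WT over HET was −0.10 against 0.01 for all genes, and 78 of 88 members were lower in WT against 48.7% of all genes. Without WT replicate 2 the median of the count fit was −0.0045 and 43 of 88 members were higher in WT. In that fit the direction thus rested on this library. On summed TPM, WT replicate 1 was below both HET libraries as well (82639 against 85018 and 86292). For 36 of the 88 members both WT libraries were below both HET libraries on CPM, against 23.5% of all genes, and on TPM for 52, against 20.8%. The smallest p-values were those of Rpsa, Rpl22l1 and Rplp0, with log2 fold changes of −0.22 ± 0.26, −0.25 ± 0.29 and −0.18 ± 0.22 (edgeR adjusted p of 0.965, 0.966 and 0.97). Rpsa had 1125 and 964 TPM in WT and 1169 and 1199 in HET. WT replicate 2 was the lowest control library for the canonical genes, and these 2 groups also differed in the T cell, myeloid and Y-linked sums above. The 10 naive B cell genes summed to 826 and 940 TPM in WT, 473 and 516 in HET and 466.2 to 1036 in KO. The part of these in the result was not tested. The 4 comparisons share libraries and are not independent of each other.

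**Figure D5:**
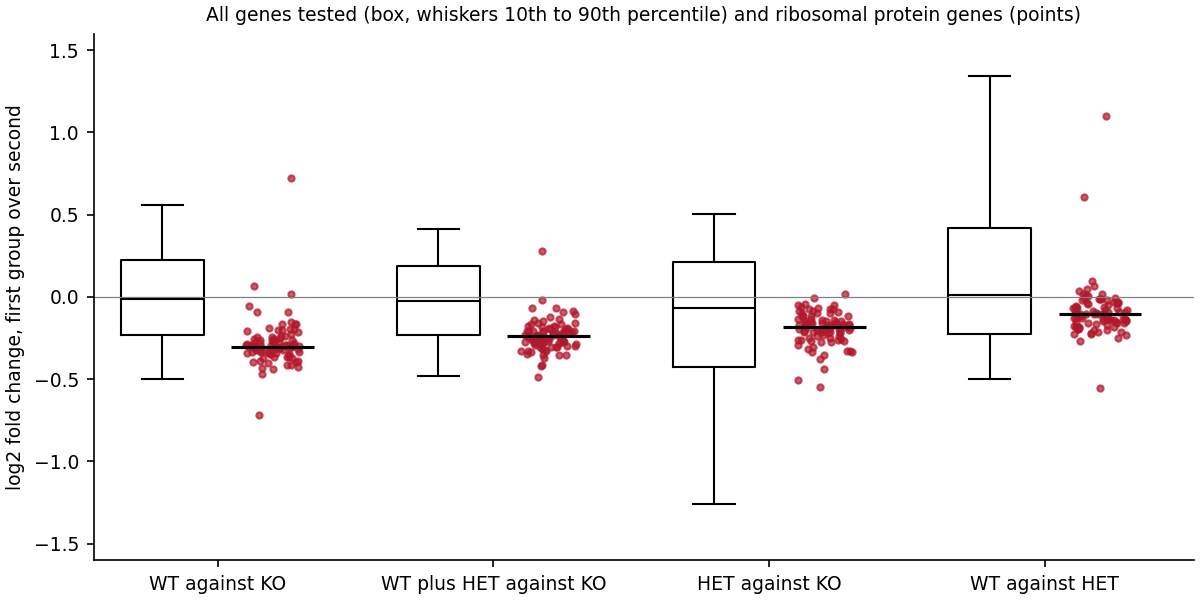
Log2 fold change, first group over second, in the 4 comparisons, for all genes tested (box from the 25th to the 75th percentile, whiskers from the 10th to the 90th, outer genes not drawn) and for each tested member (points, with a bar at the median). Most members lie below 0, with medians of −0.30, −0.24, −0.18 and −0.10, and the points farthest from the rest are low-count genes, Rpl39l and Rpl7a-ps5 in WT over KO, joined by Rpl9-ps6 in WT over HET.

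Other genes of ribosome production and use were followed as lists, each with its correlation (r) with the median canonical gene. The lists were not matched for transcript length, and the part of length in these correlations was not tested. Of ribosomal proteins with other symbols, Rack1 (listed as Gnb2l1) averaged 532 TPM and Fau, which is made as a ubiquitin-like fusion, 338, and neither was called in any comparison. The 7 elongation factors (r = 0.93), led by Eef1a1 (mean 2466 TPM), Eif5a (1718) and Eef2 (507), had 0 calls. Eef2 was higher in the pooled controls at an unadjusted p of 0.05, against 6.3% of all genes in either direction. The 11 other TOP genes (r = 0.96), among them Naca (717), Npm1 (716) and Btf3 (627), had 0 calls and medians of −0.16, −0.09, −0.03 and −0.13. The 77 mitochondrial ribosomal proteins, which build the ribosome of the mitochondrion, followed the same profile (r = 0.95). They had 0 calls and medians of −0.25, −0.24, −0.20 and −0.05. Of the 77, 11 were lower in the pooled controls at an unadjusted p of 0.05, against 6.3% of all genes in either direction. Their most abundant members were Mrps21 (507), Mrpl42 (397) and Mrpl33 (338).

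The machinery that makes ribosomes followed the profile less, again with no correction for transcript length. For the 19 genes of RNA polymerase I and its factors r was 0.90, for the 8 chaperones and importins of ribosomal proteins 0.71, for the 36 ribosome biogenesis factors 0.27 and for the 20 tested regulators −0.30, with 0 calls in each list in each comparison. The median log2 fold change of the 36 biogenesis factors, led by Nop56 (249), Nop58 (216) and Nop10 (203), was −0.04 in WT over KO and −0.08 in the pooled controls over KO, near that of all genes. In the pooled comparison Bms1 was higher in the controls and Wdr12 and Nhp2 lower at an unadjusted p of 0.05, against 6.3% of all genes. The chaperone list, led by Bccip (140), Aamp (121) and Pdcd2l (44.6), had −0.01 and −0.04. The polymerase list, led by Polr2k (240), Polr1d (235.4) and Polr2e (149), had −0.11 and −0.08. Among the regulators, led by Maf1 (208), Trp53 (169) and Rps6ka1 (89.9), the median was 0.03 and 0.06. Of the 20 tested, Mtor, Rptor and Larp4b were higher in the pooled controls at an unadjusted p of 0.05, against 6.3% of all genes. The T cell, myeloid and erythroid marker lists varied between libraries without following the ribosomal protein genes (r = −0.20, −0.09 and −0.06 over 10 libraries). For the naive B cell, germinal center B cell and plasma cell lists r was 0.07, 0.36 and 0.39.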

How the data were processed

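RNA of sorted germinal center B cells was amplified with SMART-Seq v4 and sequenced as paired reads on a HiSeq 4000. The authors quantified transcripts with Salmon 0.9.1 against Gencode vM17 and deposited, for each library, an estimated count and a TPM per transcript. Here both were summed per gene (64019 transcripts, 22380 genes), and the estimated counts, of which 46.7% were not whole, were rounded. Totals of 26612431 to 41059082 set the precision of each value.

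Genes were tested with edgeR 4.0.16 in R 4.3.3 (TMM, filterByExpr, quasi-likelihood test), adjusted by Benjamini-Hochberg over all genes tested and called at an adjusted p of 0.1. The comparison of WT, or of all controls, with KO used the libraries of those groups alone. The other comparisons came from 1 model of all 10 libraries with a term per genotype. Fold changes are the first-named group over the second. Alternatives were DESeq2 1.42.0, limma 3.58.1 on log2(TPM + 1) and log2(TPM + 0.1), other filters and scalings, length-scaled counts, each library left out, a replicate block and, chosen after seeing the data, a loess trend on transcript length taken out. The fits were also run on simulated data, in which genes varied independently and the altered genes changed by more than the median member did. Those runs do not show whether small changes shared by the members would be called. Levels, sums, CVs and correlations are descriptions without a test.

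The members and gene lists were chosen with earlier results of these data known. Genes were named by rule: the 3 smallest p-values per comparison, the 5 highest and 5 lowest levels, the 3 widest and 3 narrowest spreads in KO, paralog pairs, copies, genes of set roles, and the most abundant genes of each list. Genes of lists below an unadjusted p of 0.05 were named after their values were seen. Transcript sequences came from Gencode and promoters from RefSeq (GRCm38.p6). Some genes these rules name are not reported here, and are left out of the plots that name genes.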

Additional observations from a re-analysis of the deposited data

Results flagged for a closer look

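In 90 groups of 4 to 10 libraries, each was searched for a highest or lowest library far from the others, which chance gives in about 1 of 20 groups. It was found in 2, a smaller share than chance gives. Among the 4 control libraries, the median canonical ribosomal protein gene of WT replicate 2 stood at −0.26 (log2, relative to the mean of the 10 libraries), and its gap to the next control was 0.894 of the range of the group. WT replicate 2 also had the highest Rps27l level of the controls, 531 TPM against 505 to 507, with a gap of 0.919 of the range. Rps27l on TPM thus stood highest in the control library in which the canonical genes stood lowest on log2 CPM.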

How the results depend on the processing

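No member was called in any of the 4 comparisons under any alternative run, and the smallest adjusted p of a member ranged from 0.282 to 1 (edgeR, DESeq2 or limma). The median log2 fold change of the members ranged from −0.39 to −0.01 for WT over KO (21 alternatives), −0.33 to 0.05 for the pooled controls over KO (22), −0.27 to 0.10 for HET over KO (23) and −0.22 to −0.0045 for WT over HET (23), the last without WT replicate 2. It was above 0 only with the length trend taken out, in the pooled controls and in HET over KO. In the pooled comparison the members at an unadjusted p of 0.05 numbered 5 with DESeq2 and 5 with at least 10 counts in every library. The shares of all genes were 7.93% and 7.86%. On TPM the count was 1, against 6.97% (limma on log2(TPM + 1)). With the length trend taken out it was 0, against 3.72%. The ratio of summed TPM of HET over WT was 1.08, and became 1.02 as a share of counts, 1.04 without immunoglobulin genes, and 1.04 to 1.12 with a library left out. The small to large subunit ratio in KO, 0.818 over all members, was 0.757 on counts and 0.831 over canonical genes. The median CV of members in KO, 26.1%, was 15.6% on TPM and 22.4% to 29.1% with a KO library left out. The WT and HET libraries number 2 each, which limits the precision of every comparison.

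Libraries of different genotypes share replicate numbers in the labels. The correlation of their deviations by shared number was −0.008 to 0.127, so the numbers were not taken to pair the libraries. With the replicate block, the medians were −0.26, −0.22, −0.17 and −0.12, and 0 members were called. In the pooled comparison 1 member was then at an unadjusted p of 0.05, against 8.27% of all genes.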
